A study of Homo sapiens with 22 samples.

Results

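The clustered protocadherin genes of human chromosome 5 were examined in ChIP-seq peak lists of 22Rv1, an established prostate cancer cell line. Members were all peaks that overlap 1 of 3 windows on the genome build hg19: alpha (chr5:140165000-140392000), beta (chr5:140430000-140630000) and gamma (chr5:140710000-140893000). The windows span 610 kb, and 39 of the 291055 peaks in 8 lists fall in them. The rule used position alone, though members and lists were chosen with earlier results of these data known. Lists of 8 of the series' 22 samples were used, each from 1 library. H3K27me3, a histone mark of Polycomb silencing, Pol2S5p, RNA polymerase II carrying the serine 5 phosphate of early transcription, and E2F3, a cell cycle transcription factor, were each mapped in control cells (Ctrl) and in cells with extra linker histone H1-10 (H1-10 OE). Pol2S5p was also mapped with a control siRNA (siCtrl) and with an siRNA to E2F3 (siE2F3). All groups are the same cell line, and whether the H1-10 OE cells were 1 clone or a pool is not given in the sources used here. The labels of the siRNA samples name no H1-10 state, but the peak names in both lists carry H1FXOE, H1FX being the older symbol of H1-10. With 1 library per group, differences were not checked against replicates and p-values were not computed. Intervals are 95% Wilson or Poisson intervals and cover counting error only.

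Clustered protocadherins are cell surface adhesion proteins, best known from neurons, where each cell uses a small set of them as an identity tag for self-recognition. In the alpha and gamma clusters a row of variable first exons, each behind its own promoter, is spliced to a shared set of constant exons at the far end, while the beta genes are separate single-exon genes. Promoter choice involves CTCF and cohesin looping to distal enhancers, and the clusters are known as long stretches of repressed chromatin in many tissues. C-type genes (PCDHAC1, PCDHAC2, PCDHGC3, PCDHGC4 and PCDHGC5) lie at the far end of the variable rows and are controlled differently from the alternate genes. By RefSeq's gene order on GRCh38.p14 the row runs from PCDHA1 to PCDHAC2, then PCDHB1 to PCDHB15, then PCDHGA1 to PCDHGC5. No gene annotation of hg19 was used here, so peaks are given by position and by distance from the start of their window, and no peak is assigned to a gene.

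Promoter sequences show how the C-type genes differ in base content and which letters nearly all members share. RefSeq promoters on GRCh38.p14 were matched for 47 of the 53 listed protein-coding genes, all on the plus strand, each with 250 bases before and 50 after the gene start. PCDHA3, PCDHA13, PCDHB6, PCDHB11, PCDHGA12 and PCDHGC5 were not matched. Of 5 genes with several listed starts, the one of lowest coordinate was used. The letters CGCT are known from earlier work as part of a conserved promoter element of many of these genes. They stood on the gene's strand between 100 and 35 bases before the start in 43 of 47 promoters. Over all 35116 promoters in the table the share was 20.2%. A match of these letters alone therefore does not show that the element is present in a given promoter. The stretches below run from 100 to 11 bases before the start, with CGCT in capitals, for the first and last matched gene of each family and for all 4 matched C-type genes.
PCDHA1: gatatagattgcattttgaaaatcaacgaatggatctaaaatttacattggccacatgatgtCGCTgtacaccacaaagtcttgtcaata
PCDHA12: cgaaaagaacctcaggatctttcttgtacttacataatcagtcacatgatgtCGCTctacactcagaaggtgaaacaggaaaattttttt
PCDHB1: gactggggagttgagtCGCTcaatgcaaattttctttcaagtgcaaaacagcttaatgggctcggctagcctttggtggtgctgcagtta
PCDHB15: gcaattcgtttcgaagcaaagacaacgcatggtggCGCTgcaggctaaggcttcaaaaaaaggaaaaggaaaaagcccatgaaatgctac
PCDHGA1: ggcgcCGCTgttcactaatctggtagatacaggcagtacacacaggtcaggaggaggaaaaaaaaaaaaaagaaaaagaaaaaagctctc
PCDHGA11: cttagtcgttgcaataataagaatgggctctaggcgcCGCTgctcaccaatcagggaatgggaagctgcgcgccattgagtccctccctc
PCDHGB1: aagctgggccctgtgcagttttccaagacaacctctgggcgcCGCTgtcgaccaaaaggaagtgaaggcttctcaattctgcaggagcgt
PCDHGB7: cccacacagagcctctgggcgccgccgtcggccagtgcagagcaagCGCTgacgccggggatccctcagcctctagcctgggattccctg
PCDHAC1: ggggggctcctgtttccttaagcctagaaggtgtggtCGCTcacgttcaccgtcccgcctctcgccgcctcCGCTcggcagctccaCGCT
PCDHAC2: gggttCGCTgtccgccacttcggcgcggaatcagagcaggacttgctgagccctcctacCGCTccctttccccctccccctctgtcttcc
PCDHGC3: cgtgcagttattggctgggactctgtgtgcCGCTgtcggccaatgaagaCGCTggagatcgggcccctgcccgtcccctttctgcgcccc
PCDHGC4: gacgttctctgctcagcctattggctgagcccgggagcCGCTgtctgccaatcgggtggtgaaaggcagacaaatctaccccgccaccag

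The longer string TGTCGCT, picked after the alpha sequences were seen, was present on either strand in 10 of 11 alpha promoters outside the C type, 1 of 14 beta, 3 of 11 gamma A, 0 of 7 gamma B and 0 of 4 C-type promoters, and in 1.76% of all promoters. PCDHA9 was the alpha exception. C-type promoters were the richest in G and C among the families: their GC content ran from 59.0 to 66.0%, with 15 to 27 CpG pairs per promoter. Alpha promoters ran from 33.7 to 40.3% GC with 3 to 9 CpG pairs, and beta promoters from 33.3 to 46.3% with 5 to 12. Gamma A promoters had a median GC of 38.3% and gamma B promoters one of 48.3%, against 58.7% over all promoters in the table. The E2F letters TTTCGCGC and TTTGGCGC, searched on both strands, were found in 0 of 47 promoters and one or the other in 1.15% of all. At that share few or none would be found in 47 promoters, and no other E2F letters were searched. The 0 therefore does not set these promoters apart. These matches describe the letters of the reference and not binding.

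**Figure D1:**
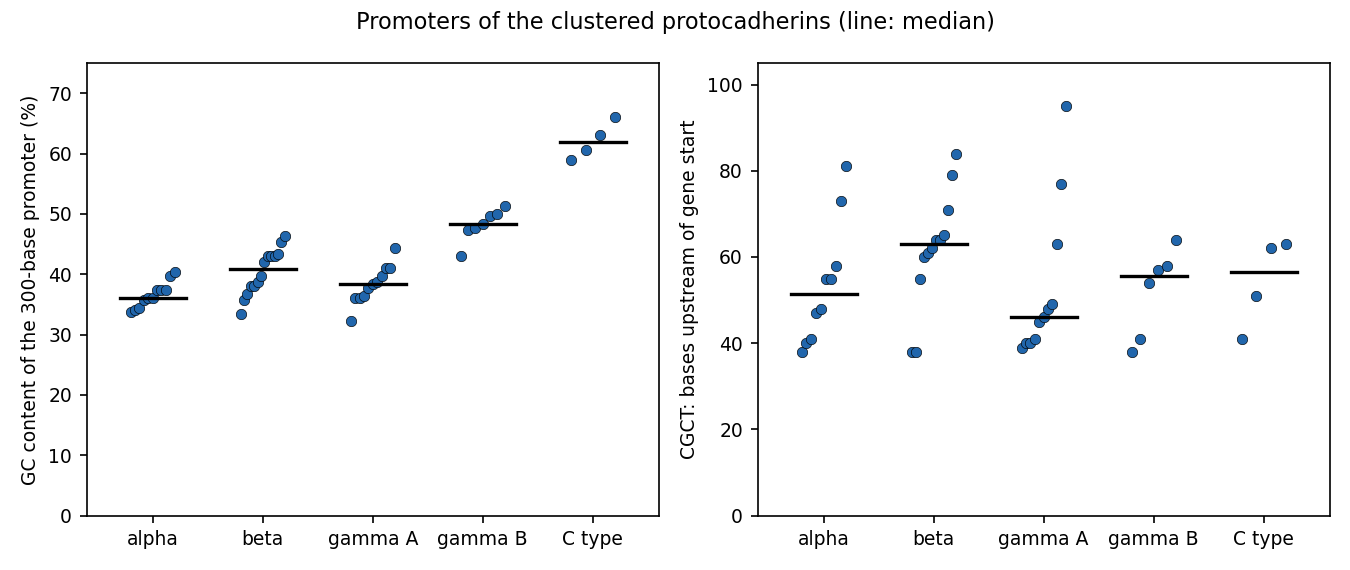
GC content of the 300-base RefSeq promoter in percent (left) and distance in bases from the gene start to the nearest CGCT lying 35 to 100 bases upstream (right), 1 point per gene, by family, with the median as a line. The 4 C-type genes sit at 59.0% GC or more, above every other member; the right panel leaves out the 4 genes with no CGCT in that stretch.

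The 39 peaks lay at 23 separate places: 9 in alpha, 2 in beta and 12 in gamma. Of these, 16 places were found in a single list, 3 in 2 lists, 2 in 3 lists, 1 in 4 and 1 in 5. H3K27me3 had 0 peaks in Ctrl and 10 in H1-10 OE. Pol2S5p had 10 in Ctrl, 2 in H1-10 OE, 6 in siCtrl and 5 in siE2F3. E2F3 had 6 in Ctrl and 0 in H1-10 OE. H3K27me3 of H1-10 OE and Pol2S5p of Ctrl thus had the most peaks here, but the lists run from 2540 to 83650 peaks. Relative to its own list's density, H3K27me3 of H1-10 OE stood at 2.76 times, Pol2S5p of Ctrl at 1.43 and E2F3 of Ctrl at 1.32. Pol2S5p stood at 0.250 times in H1-10 OE, 0.364 in siCtrl and 0.305 in siE2F3.

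**Figure D2:**
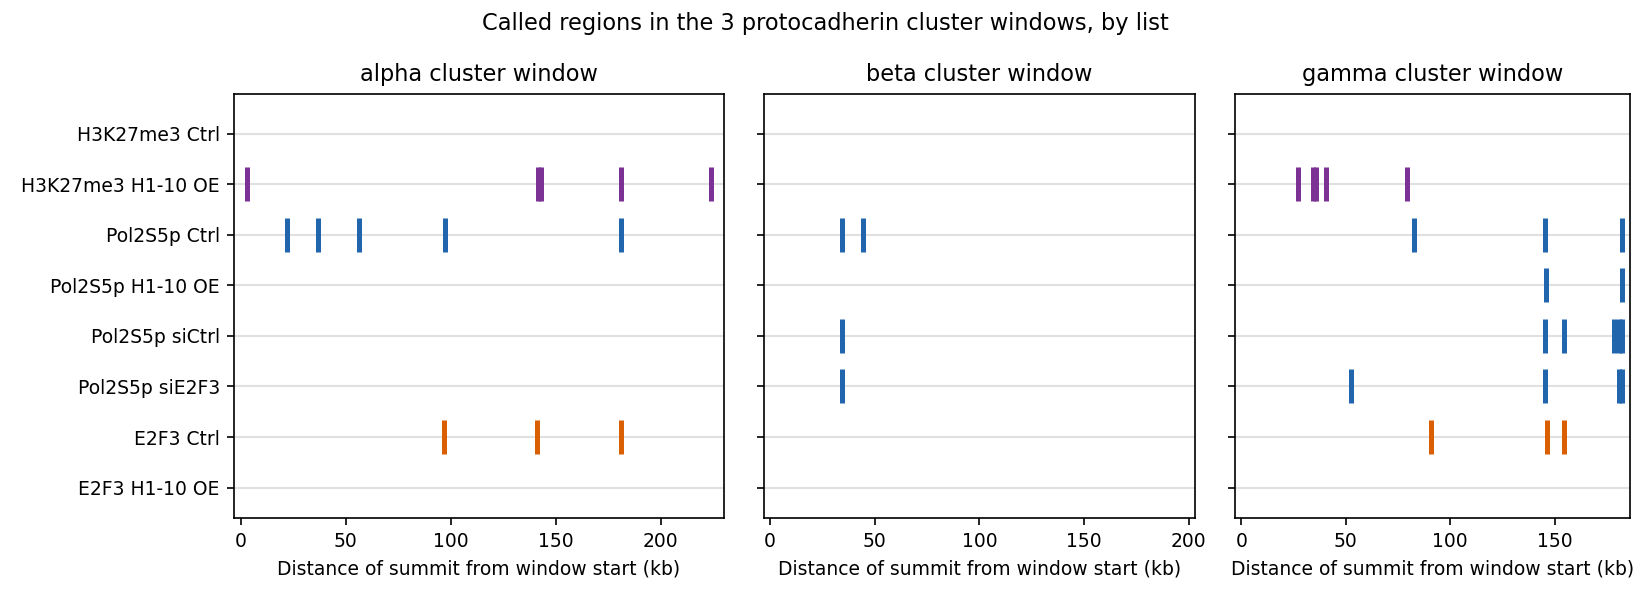
Called peaks of the 8 lists (rows) in the alpha, beta and gamma windows (panels), each tick at a peak summit, by distance from the window start in kb. The alpha window holds 5 Pol2S5p peaks in Ctrl and 0 in each of the other 3 Pol2S5p lists, while its H3K27me3 peaks appear only in the H1-10 OE row.

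H3K27me3 peaks of H1-10 OE were split evenly between alpha, with 5 covering 3.38 kb (1.49% of the window), and gamma, with 5 covering 2.48 kb (1.35%); beta had 0. H3K27me3 of Ctrl had 0 peaks in any window, and its nearest peaks lay 1029 kb before alpha and 12969 kb after gamma. That list is short, with 2540 peaks and 0.821 per Mb, so that few would fall in 610 kb at its mean density. The 10 peaks of H1-10 OE came to 16.4 per Mb (interval 7.86 to 30.1), against 5.95 per Mb over the whole list and 6.71 per Mb on chromosome 5, or 2.76 times the density of the list. In the gaps between the clusters and 500 kb on either side the same list had 6 peaks, 5.37 per Mb (1.97 to 11.7), all of them downstream of gamma, and the intervals of the clusters and of these surroundings overlap. Both the upstream flank and the gaps held 0. Genome tiles of the alpha window's length held 5 or more H3K27me3 peaks of H1-10 OE in 7.68% of 13613 cases. All 10 cluster peaks were found in H1-10 OE only, as were 97.2% of the whole list, so this count says nothing particular to the protocadherins. The count fell to 3 with a -log10 q of at least 5, and to 2 with both lists cut to equal numbers of their strongest peaks.

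Strongest of these peaks was the alpha peak at chr5:140345914-140346516, 181 kb into the window, with a fold enrichment of 7.30 and a -log10 q of 10.0; fold, p and q are the values of the authors' caller. The second, at chr5:140305471-140307161 and 141 kb into the window, was the widest at 1691 bp, with a fold of 6.57 and a -log10 q of 7.81. Ranked by -log10 p, they stood near the top of their list, at percentiles 98.3 and 96.1. A short neighbour at chr5:140307555-140307853 had a fold of 3.82. The other 2 alpha peaks stood at the ends of the window: chr5:140167855-140168208, 2.94 kb from its start, had a fold of 4.52 and chr5:140388934-140389363, 224 kb from its start, one of 4.02. The strongest places were thus in the far part of the alpha window; which gene start lies there was not determined.

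Gamma had a different layout, with 4 of its 5 H3K27me3 peaks inside the stretch from 26.9 to 40.4 kb after the window start. These lay at chr5:140736777-140737075 with a fold of 4.02, chr5:140743648-140744356 with 3.25, chr5:140745503-140745891 with 5.11 and chr5:140749827-140750560 with 5.11. The fifth and most significant, chr5:140789093-140789436, lay 79.3 kb in, with a fold of 5.48 and a -log10 q of 5.33. No gamma peak of H3K27me3 lay in the last 100 kb of the window, the part that holds most of the Pol2S5p peaks of gamma. Over both clusters the median fold was 4.82, against 4.38 in the whole list, and 3 of 10 peaks reached a -log10 q of 5, against 19.0% of the list.

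Pol2S5p of Ctrl was present in all 3 clusters: 5 peaks covered 3.85 kb of alpha (1.70% of the window), 2 covered 0.822 kb of beta (0.411%) and 3 covered 3.58 kb of gamma (1.95%). In H1-10 OE the alpha and beta windows held 0 Pol2S5p peaks and gamma held 2, covering 0.648 kb (0.354%). Over the 3 windows that is 16.4 peaks per Mb (7.86 to 30.1) in Ctrl and 3.28 (0.397 to 11.8) in H1-10 OE, and these intervals overlap. The gaps and flanks, in contrast, held 47 peaks in Ctrl and 50 in H1-10 OE. The H1-10 OE list is also the longer of the pair as a whole, with 13.1 peaks per Mb against 11.5.

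**Figure D3:**
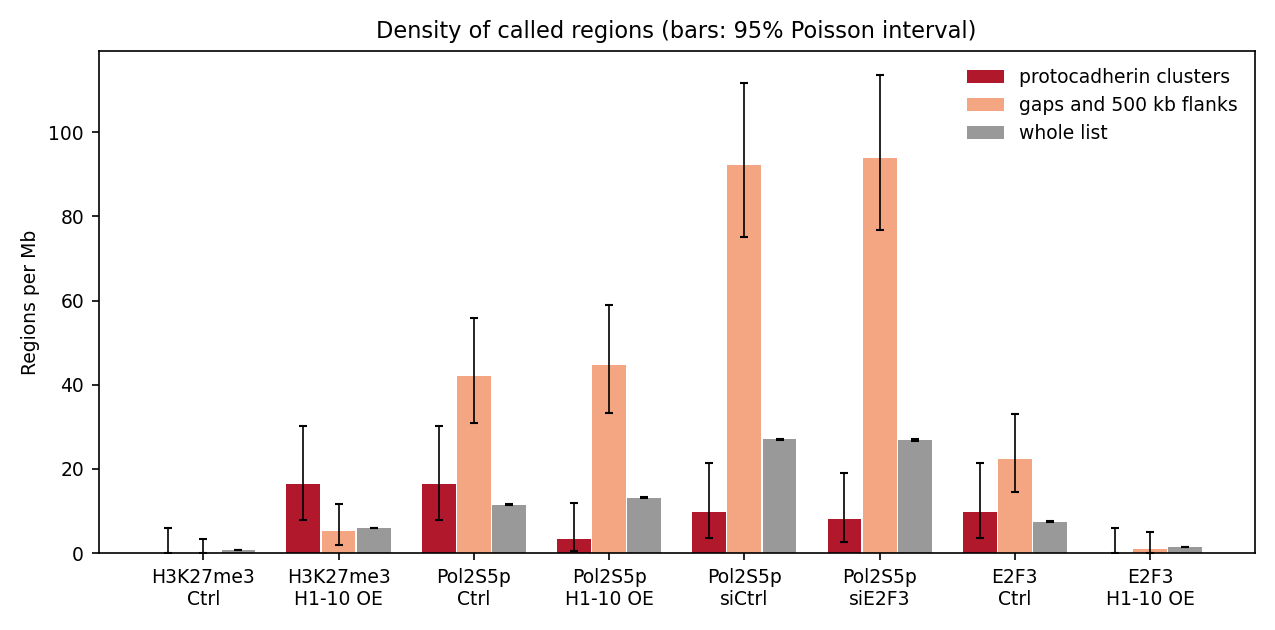
Peaks per Mb in the 3 cluster windows, in the gaps between them with 500 kb on either side, and over the whole list, for each of the 8 lists, with 95% Poisson intervals as error bars. In all 4 Pol2S5p lists the surroundings are denser than the clusters, and Pol2S5p of H1-10 OE has 3.28 per Mb in the clusters against 44.7 around them.

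Among alpha peaks of Pol2S5p in Ctrl, the most significant was chr5:140186443-140187399, 22.2 kb into the window, with a fold of 8.87 and a -log10 q of 17.4. The next, chr5:140261562-140262397, lay 97.1 kb in, with a -log10 p of 19.7 and a -log10 q of 17.2. The third was chr5:140345871-140346454, 181 kb in, with a fold of 4.93 and a -log10 q of 11.2. The other 2 lay 56.2 kb in (chr5:140220657-140221455, fold 6.82) and 36.7 kb in (chr5:140201149-140201826, fold 3.36). Thus 4 of the 5 lay within the first 97.1 kb of the window and 1 lay far from them.

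Beta held the strongest Pol2S5p peak of Ctrl in any cluster, chr5:140474019-140474499, with a fold of 11.3 and a -log10 q of 30.1. None of the other 7 lists had a peak there. The second beta peak, chr5:140464126-140464466, had a fold of 6.23 in Ctrl and overlapped a peak in siCtrl (fold 6.34) and in siE2F3 (fold 2.81), with summits within 36 bp of each other, but no peak in H1-10 OE. Both lie in the first 45 kb of the 200-kb beta window; the rest of it was free of peaks in all 8 lists. Beta had no peak of H3K27me3 or E2F3 in either condition.

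In gamma, chr5:140855357-140856299 was the most significant Pol2S5p peak of Ctrl, 145 kb into the window, with a fold of 8.01 and a -log10 q of 18.9. It was 1 of the 2 gamma peaks that overlapped a peak of H1-10 OE, at chr5:140855529-140855862, where the fold was 3.79 and the -log10 q 2.96. The second shared place lay at the window's far edge: chr5:140890703-140892984 in Ctrl, with a fold of 7.68, and chr5:140892102-140892415 in H1-10 OE, with a fold of 5.75. The third gamma peak of Ctrl, chr5:140792456-140792805, with a fold of 4.86, had no counterpart in any list. With any overlap counted, neither of the 2 H1-10 OE peaks was without a Ctrl peak, where 42.8% of its whole list was. With 50% reciprocal overlap this turned around, and both of the 2 were without one, since the H1-10 OE peaks at these places are much narrower. By the same rule 10 of 10 Ctrl peaks were without an H1-10 OE peak. Whole-list shares under 50% reciprocal overlap are not given here, so these counts cannot be set against the lists. Folds come from separate libraries, so their levels are not compared between lists.

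Of the 10 Pol2S5p peaks of Ctrl in the clusters, 8 (80.0%, interval 49.0 to 94.3%) had no overlapping peak in H1-10 OE, where 41.0% of the whole Ctrl list had none. In the gaps and flanks 17 of 47 (36.2%, 24.0 to 50.5%) had none. Peaks of like strength had a lower share over the whole list: with the Ctrl list cut into 10 classes of equal size by -log10 p, a mean of 36.3% of the peaks in the members' classes were found in Ctrl only. The cluster and flank intervals overlap slightly, and regions of 1 library are not replicates, so the difference has no test. All 5 alpha and both beta peaks were among the 8.

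The siRNA lists covered the same places with other libraries. Those cells also had an siRNA, and the peak names carry H1FXOE. For a Ctrl peak missing from them, H1-10 state, siRNA and library cannot be told apart. Counts in the siRNA lists were as follows. Alpha had 0 Pol2S5p peaks in siCtrl and 0 in siE2F3, though these lists hold 83650 and 83067 peaks, over 2 times as many as the 35493 of Ctrl. Of the 10 cluster peaks of Ctrl, 7 (70.0%, 39.7 to 89.2%) were found in none of the other 3 Pol2S5p lists, against 19.5% of the whole Ctrl list. In the gaps and flanks the count was 5 of 47 (10.6%, 4.63 to 22.6%), with 0 of 24 in the upstream flank and 3 of 20 in the downstream flank. By cluster the count was 5 of 5 in alpha, 1 of 2 in beta (9.45 to 90.5%) and 1 of 3 in gamma (6.15 to 79.2%). The intervals of the 3 clusters together and of their surroundings do not overlap here. Those of beta alone and of gamma alone do overlap that of the surroundings. They cover counting error only, and peaks of 1 library are not replicates, so this difference has no test either. The mean over the members' own strength classes was 20.8%. Tiles of the alpha window's length with 5 or more Pol2S5p peaks of Ctrl numbered 2220. Of these, 0.766% held no peak of any of the other 3 lists, the state of the alpha window. Both limits were set to alpha's own values, and tiles with more Ctrl peaks than alpha are included. The share therefore does not measure how rare alpha's state is. This set of counts was chosen after the values were seen. The Ctrl list and the siRNA lists carry different folder labels in their peak names, and the part of any difference in processing was not tested.

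**Figure D4:**
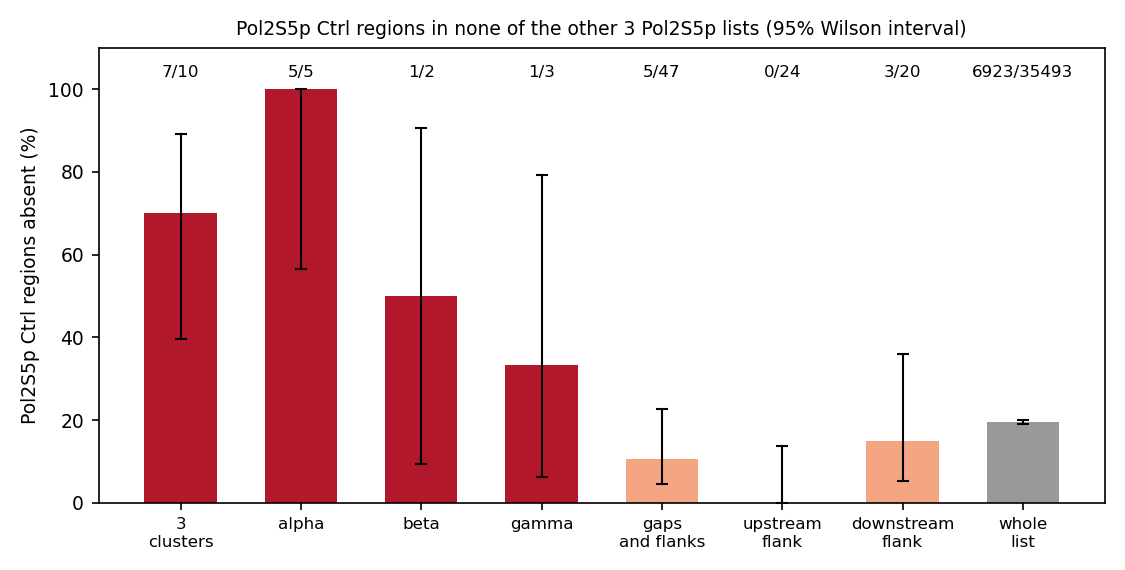
Share of the Pol2S5p peaks of Ctrl that overlap no peak of H1-10 OE, siCtrl or siE2F3, in percent, with 95% Wilson intervals and the counts above each bar. Alpha stands at 5 of 5, the upstream flank at 0 of 24 and the whole list at 19.5%.

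A strong Pol2S5p peak of Ctrl in the gap between alpha and beta, 9.22 kb before the beta window, shared this pattern. It lay at chr5:140419124-140420778 with a fold of 26.8 and a -log10 q of 151, overlapped an E2F3 peak of Ctrl at chr5:140419765-140420584 and had no peak in the other 3 Pol2S5p lists. Of the 1127 Ctrl peaks at least as significant, 17 (1.51%) were absent from all 3. The limit was this peak's own value, and the peak was picked after its values were seen. That share therefore does not measure how rare its state is. The gap between beta and gamma held 2 Ctrl peaks. The weaker, chr5:140705637-140706029, with a fold of 6.23 and a -log10 q of 9.90, also had no peak in the other 3 lists. The stronger, chr5:140699631-140700778, with a fold of 29.1, had a Pol2S5p peak in each of the other 3 lists, with a fold of 15.1 in H1-10 OE, 11.7 in siCtrl and 21.7 in siE2F3. These gap peaks lie outside the windows and are not counted among the 39.

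E2F3 had 3 peaks in alpha and 3 in gamma in Ctrl, covering 1829 bp (0.806%) and 1503 bp (0.821%), and 0 in beta. Highest in significance was the gamma peak chr5:140864114-140864812, 155 kb into the window, with a fold of 8.95 and a -log10 q of 16.7. The gamma peak chr5:140855982-140856458 had a fold of 6.97 and chr5:140800448-140800774 one of 4.65. In alpha the peaks were chr5:140345861-140346600 with a fold of 5.26, chr5:140305768-140306399 with 5.47 and chr5:140261878-140262334 with 4.06. These were weak for their list: 5 of 6 stood below the list's median -log10 p, and their median fold was 5.36 against 8.98. Their density of 9.84 per Mb (3.61 to 21.4) was close to the 7.43 of the whole list and below the 22.4 (14.5 to 33.0) of the gaps and flanks, with overlapping intervals.

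E2F3 of H1-10 OE had 0 peaks in the windows; the nearest lay 487 kb before alpha and 1573 kb after gamma. All 6 Ctrl peaks were thus found in Ctrl only, beside 97.4% of the whole list and 25 of 25 in the gaps and flanks. With both lists cut to equal numbers of their strongest peaks the count was 0, since none of the 6 is among the Ctrl peaks kept. The H1-10 OE list has 1.39 peaks per Mb, which puts about as little in a window of this size as was seen, so the clusters cannot be set apart from the list as a whole.

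**Figure D5:**
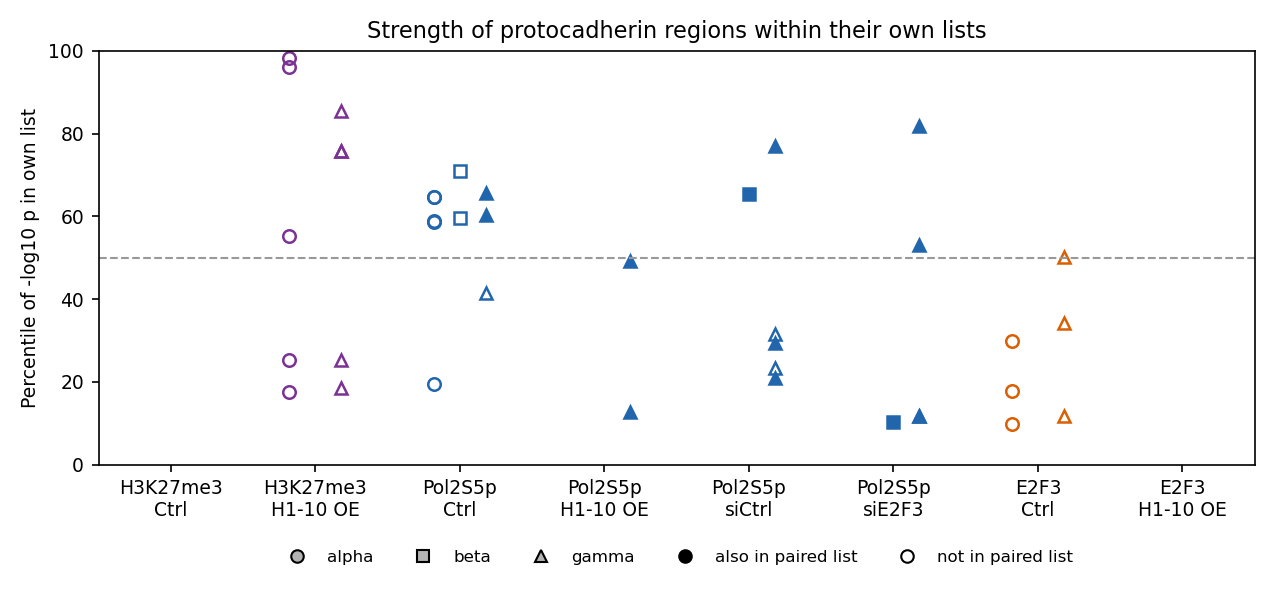
Percentile of each cluster peak by -log10 p within its own list, for the 8 lists, with circles for alpha, squares for beta and triangles for gamma; filled symbols overlap a peak of the paired list (Ctrl with H1-10 OE, siCtrl with siE2F3) and equal values coincide. For Pol2S5p of Ctrl 8 of 10 peaks stand above the dashed line at the list's median, and for E2F3 of Ctrl 1 of 6 does.

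Where the targets met, the far part of alpha held the fullest overlap. At 181 kb into alpha, Pol2S5p and E2F3 of Ctrl and H3K27me3 of H1-10 OE had peaks at the same place, chr5:140345861-140346600, with all 3 summits within 143 bp. Pol2S5p and E2F3 had no peak there in H1-10 OE, nor Pol2S5p in the siRNA lists. At 141 kb, the E2F3 peak of Ctrl lay wholly inside the wide H3K27me3 peak of H1-10 OE, with summits 303 bp apart and no Pol2S5p peak in any list. At 97 kb, E2F3 lay inside the Pol2S5p peak of Ctrl, with summits 114 bp apart, and no H3K27me3 peak was called. So alpha had 1 place where Ctrl showed polymerase with E2F3 and H1-10 OE showed the silencing mark, and another where Ctrl showed E2F3 alone and H1-10 OE the mark. Over the whole lists, 97.2% of H3K27me3 peaks of H1-10 OE had no counterpart in the paired list. The share was 97.4% for E2F3 of Ctrl and 41.0% for Pol2S5p of Ctrl. The mark in H1-10 OE only and E2F3 in Ctrl only are thus not particular to these places.

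Over both clusters, 2 of 10 H3K27me3 peaks of H1-10 OE (20.0%, 5.67 to 51.0%) overlapped an E2F3 peak of Ctrl, against 3.27% of the whole list, and 1 of 10 (10.0%, 1.79 to 40.4%) overlapped a Pol2S5p peak of Ctrl, against 1.96%; the second interval includes the share of the list. Seen from the other side, 2 of 6 E2F3 peaks of Ctrl (33.3%, 9.68 to 70.0%) overlapped H3K27me3 of H1-10 OE, against 2.60% of the list. Within 5 kb, 2 of the 10 Pol2S5p peaks of Ctrl had an H3K27me3 peak of H1-10 OE, against 1.93%; the second of them was chr5:140792456-140792805 in gamma, 3.02 kb from the mark. The 4 grouped H3K27me3 peaks of gamma lay 30.7 to 41.9 kb from the nearest Pol2S5p peak of Ctrl. Most H3K27me3 peaks thus lay away from the Ctrl peaks of polymerase, as did most of the whole list, where 1.96% overlapped one. These distances were not set against those of the whole list. In H1-10 OE 0 of 10 H3K27me3 peaks (interval 0 to 27.8%) lay within 5 kb of Pol2S5p, against 3.26% of the list. That interval includes the share of the list.

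In Ctrl, 3 of 10 Pol2S5p peaks (30.0%, 10.8 to 60.3%) overlapped E2F3, against 39.9% of the list, and 3 of 6 E2F3 peaks (50.0%, 18.8 to 81.2%) overlapped Pol2S5p, against 68.0%. Neither share left the range that counting error allows around the list's own. The place 145 kb into gamma, chr5:140855134-140856458, was the one found in most lists, with Pol2S5p in all 4 and E2F3 in Ctrl. There the E2F3 summit stood 722 bp to the right, at a higher coordinate, of the Pol2S5p summit of Ctrl, farther apart than the 82 and 114 bp of the alpha places. The E2F3 peak at chr5:140864114-140864812 had no Pol2S5p peak in Ctrl and 1 in siCtrl, at chr5:140864438-140864715 with a fold of 4.28.

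Comparing siE2F3 with siCtrl asks how Pol2S5p here differed when E2F3 was targeted. Beta had 1 peak in each, covering 0.355 kb in siCtrl and 0.306 kb in siE2F3, and gamma had 5 in siCtrl and 4 in siE2F3, covering 3.03 and 2.79 kb. In siCtrl 2 of 6 peaks (33.3%, 9.68 to 70.0%) had no counterpart in siE2F3, beside 30.6% of the whole list. In siE2F3 1 of 5 (20.0%, 3.62 to 62.4%) had none in siCtrl, beside 22.9%. The 2 in siCtrl only were chr5:140864438-140864715, a place with an E2F3 peak in Ctrl, and chr5:140888273-140888585, with folds of 4.28 and 4.07. The 1 in siE2F3 only was chr5:140762305-140762572, with a fold of 3.56. All 3 were weak, with a -log10 q from 2.63 to 4.27, and the shares were near those of the lists.

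The widest peaks of either siRNA list in the clusters, chr5:140891348-140894156 in siCtrl and chr5:140891439-140894015 in siE2F3, straddle the end of the gamma window by 1156 and 1015 bp. With a fold of 5.93 and 9.58 they were also the most significant members of their lists. Ctrl and H1-10 OE each had a further peak just outside, 0.389 and 0.022 kb past the window end. Next downstream of PCDHGC5 in RefSeq's gene order is DIAPH1, an actin-organising formin, and this edge place cannot be told apart from its neighbourhood by position alone. At the other end, the last Pol2S5p peak before alpha lay 73.9 kb upstream in Ctrl and 59.2 kb in H1-10 OE.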

How the data were processed

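Peak lists from ChIP-seq of 8 libraries were used, 1 per group as labelled; the other 14 samples (inputs and H1-10 libraries) were not analysed here. The submitters' processing notes name FastQC, fastp, Bowtie and the build hg19, without versions or settings. No source used here gives the peak caller, its threshold or the inputs. The deposited columns are a score per peak, the summit's fold enrichment (a ratio to the background), the -log10 p, the -log10 q and the summit offset, all from the authors' calling. Read depth is unknown.

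Members and lists were chosen with earlier results of these data known. Peaks with 1 bp or more in a window were counted, covered length was clipped to it, and shared means an overlap of at least 1 bp. Densities use the sum of the last peak end per chromosome, 3093 Mb. The text names the 3 peaks with the highest -log10 q per list and cluster and places found in 3 or more lists; other named peaks, the gap peaks, the tiles and the 10 strength classes were chosen after their values were seen. The overlap code was tested with planted copies of real peaks, each shifted by a small part of its width. It found 5000 of 5000 in Pol2S5p of Ctrl (35493 peaks) and 2000 of 2000 in E2F3 of Ctrl (22988 peaks). Such copies overlap their originals by design, so this checks only that the code runs correctly. Counts matched bedtools 2.31.1. Tools were Python 3.11.15, matplotlib 3.10.9, scipy 1.17.1, pandas 2.3.3 and numpy 2.4.6. Alternatives were a -log10 q of at least 5, 50% reciprocal overlap, peaks within 1 kb merged, the summit inside the window, windows narrowed by 10 kb, and equal numbers of the strongest peaks.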

Additional observations from a re-analysis of the deposited data

How the results depend on the processing

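Of 112 values recomputed for 24 results under the alternatives, 90 stayed within 1.5 times the reported value and 22 did not; assigning peaks by summit moved 0 of 24. Pol2S5p of Ctrl kept its count within 1.5 times in each alternative run, as did its count absent from H1-10 OE. With a -log10 q of at least 5, the clusters held 3 H3K27me3 peaks in H1-10 OE over 2.64 kb, all 3 absent from Ctrl, 1 Pol2S5p peak in H1-10 OE over 0.314 kb, 2 in siCtrl over 2.01 kb, of which 1 was absent from siE2F3, and 2 in siE2F3 over 2.06 kb. With windows narrowed by 10 kb, which removes the far edge of gamma, Pol2S5p had 1 peak in H1-10 OE over 0.334 kb, 3 in siCtrl over 0.999 kb, of which 1 was absent from siE2F3, and 3 in siE2F3 over 1.07 kb. Merging peaks within 1 kb gave 1.23 kb of Pol2S5p in H1-10 OE. With 50% reciprocal overlap, 2 Pol2S5p peaks of H1-10 OE were not in Ctrl and 2 of siE2F3 not in siCtrl. With equal numbers of the strongest peaks, 2 H3K27me3 peaks were found in H1-10 OE only, and 0 E2F3 peaks in Ctrl only, since none of the 6 is among the strongest kept. Whole-list shares under these alternatives are not given here, so the counts show only how far the reported values moved. Where no value shows it, the cause was not tested. No paired analysis was possible because each group is 1 library with no replicate. For the same reason no replicate could be left out. Depth is unknown, so a place without a peak may still carry signal under the threshold.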
